A study of Mus musculus with 24 samples.

Results

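A set of 10 genes that answer to glucocorticoid hormones, or that make or carry the response, were followed in liver and white adipose tissue: Nr3c1, Hsd11b1, Fkbp5, Zbtb16, Tsc22d3, Sgk1, Klf9, Tat, Mt1 and Mt2. Every probe whose gene name in the scanner files was one of these was taken, which gave 10 of 34844 gene names, 12 of 55681 probes and 21 of 59305 spots. Nr3c1 and Mt1 had 2 probes each, Hsd11b1 had 1 probe spotted 10 times, and the others had 1 probe on 1 spot. The gene Per1, itself induced by glucocorticoids, was left out because the mice carry human PER1.

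The study compared male C57BL/6 mice, 2 months old, holding human PER1 S714G (called mutant) with mice holding human PER1 S714 (called control), so that both genotypes have the human gene. PER1 protein acts in the negative limb of the circadian clock. All mice had been on light-dark cycles for 10 days, and tissue was frozen at ZT1 or ZT13, hours after lights on. The 24 arrays form 8 groups with 3 in each: liver S714 ZT1, liver S714 ZT13, liver S714G ZT1, liver S714G ZT13 and the same 4 in white adipose tissue. The promoter that drives human PER1 and the number of founder lines are not given in the sources used here. The 3 arrays of a group are described as independent repeats without saying that each came from its own mouse, so p-values measure the spread between these samples, which may be technical.

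Glucocorticoids enter cells and bind the glucocorticoid receptor, encoded by Nr3c1, which moves to the nucleus and binds DNA at a short palindrome. Hsd11b1 regenerates active hormone inside liver and fat cells. Corticosterone of nocturnal rodents peaks around lights off, and receptor targets follow that daily wave as well as the local clock. Fkbp5 encodes a cochaperone that lowers the receptor's affinity for hormone. Tsc22d3 (also called GILZ), Zbtb16 (PLZF), Sgk1 (a kinase), Klf9 (a zinc finger repressor) and Tat (tyrosine aminotransferase, an enzyme of amino acid breakdown in hepatocytes) are classical induced genes. Mt1 and Mt2 encode metallothioneins, small zinc-binding proteins induced by metals through MTF1 as well as by glucocorticoids.

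Promoter sequence is shown for 3 of the genes, each with a motif of a known regulator. These are the glucocorticoid palindrome in Sgk1, a motif of the clock's activators in Fkbp5 and metal response cores in Mt2. RefSeq promoter windows on GRCm38.p6, 250 bases before to 50 after a start, were matched for 8 of the 10 genes (15 windows in all). No window of Nr3c1 or Zbtb16 was searched, so nothing is said about motifs in their promoters. The full glucocorticoid palindrome (AGAACA and TGTTCT with 3 bases between) was in 3 of 32817 windows of mouse promoters, and 1 of those 3 was a window of Sgk1. The palindrome is in capitals at position -189 in this stretch, which starts at position -250 (chr10:21993640-21993789, plus strand).
Sgk1: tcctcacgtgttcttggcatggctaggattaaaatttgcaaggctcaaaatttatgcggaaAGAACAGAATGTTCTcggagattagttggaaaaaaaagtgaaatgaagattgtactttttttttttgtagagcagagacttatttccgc
The Fkbp5 window held an E-box, the CACGTG to which the clock's activators bind, at position -169, and the Sgk1 window above also holds one, in lower case, at position -246. E-boxes were in 7.15% of windows, searched on both strands. The stretch starts at position -200 (chr17:28486250-28486349, minus strand), with the E-box in capitals.
Fkbp5: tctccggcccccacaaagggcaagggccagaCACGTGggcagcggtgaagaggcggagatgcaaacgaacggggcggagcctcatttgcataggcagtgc
The window of Mt2 held 4 metal response cores (TGCACNC or TGCGCNC, either strand) and that of Mt1 held 3, while 1.97% of windows held 3 or more. Mt2 is shown from position -230 to -1 (chr8:94172388-94172617, plus strand), with 3 of the cores in capitals.
Mt2: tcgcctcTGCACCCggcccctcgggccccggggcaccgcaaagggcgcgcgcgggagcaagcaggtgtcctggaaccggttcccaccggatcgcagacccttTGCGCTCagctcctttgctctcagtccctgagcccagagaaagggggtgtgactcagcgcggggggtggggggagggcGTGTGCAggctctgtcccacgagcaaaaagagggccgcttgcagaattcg
One arm of the palindrome alone (TGTTCT, either strand) was in 19.0% of windows and a D-box (TTATGTAA or TTACGTAA) in 1.05%. Single arms were found in 3 of the 6 Sgk1 windows and in 1 of the 3 Tsc22d3 windows, and in no window of the other matched genes, Fkbp5 included. These matches describe letters in a short window and do not show binding.

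Levels below are log2 of the array's processed signal relative to the 75th percentile of the same array, so a level of 0 is the signal that 75% of probes stay under. Between 45.5% and 71.2% of non-control spots of an array were well above background, no spot was saturated, and arrays of a group correlated at 0.942 to 0.991 across probes. The 24 arrays lay on 3 slides. On slide 1 were liver S714 ZT1, adipose S714 ZT1 and replicates 1 and 2 of adipose S714G ZT1; slide 2 held replicate 3 of that group, liver S714G ZT1, adipose S714 ZT13 and replicate 1 of liver S714 ZT13; slide 3 held the remaining 8 arrays. Control ZT1 arrays therefore never shared a slide with control ZT13 arrays. The genotypes shared a slide only for liver at ZT13 (slide 3) and adipose tissue at ZT1 (slide 1). Adipose S714G ZT1 was the only group on slide 1 and another slide. A fit with slide as a fixed block therefore takes the slide 1 offset from its replicate 3 against replicates 1 and 2. That offset is applied to liver as well, so the block does not test slide 1 within liver. Adipocyte marker sums (8 markers; linear signals relative to the 75th percentile) were 466 to 669 in adipose tissue and 11.08 to 20.57 in liver. Mouse probes check nothing of the human PER1 change. Of 9 clock genes fitted, 3 passed upwards and 5 downwards in the liver interaction of genotype and time, where 30.8% of all probes passed. Dbp, a clock output factor, rose by 3.34 ± 0.17 (SE) from ZT1 to ZT13 in control liver, where time and slide are confounded, and fell by 3.46 ± 0.17 in mutant liver.

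**Figure D1:**
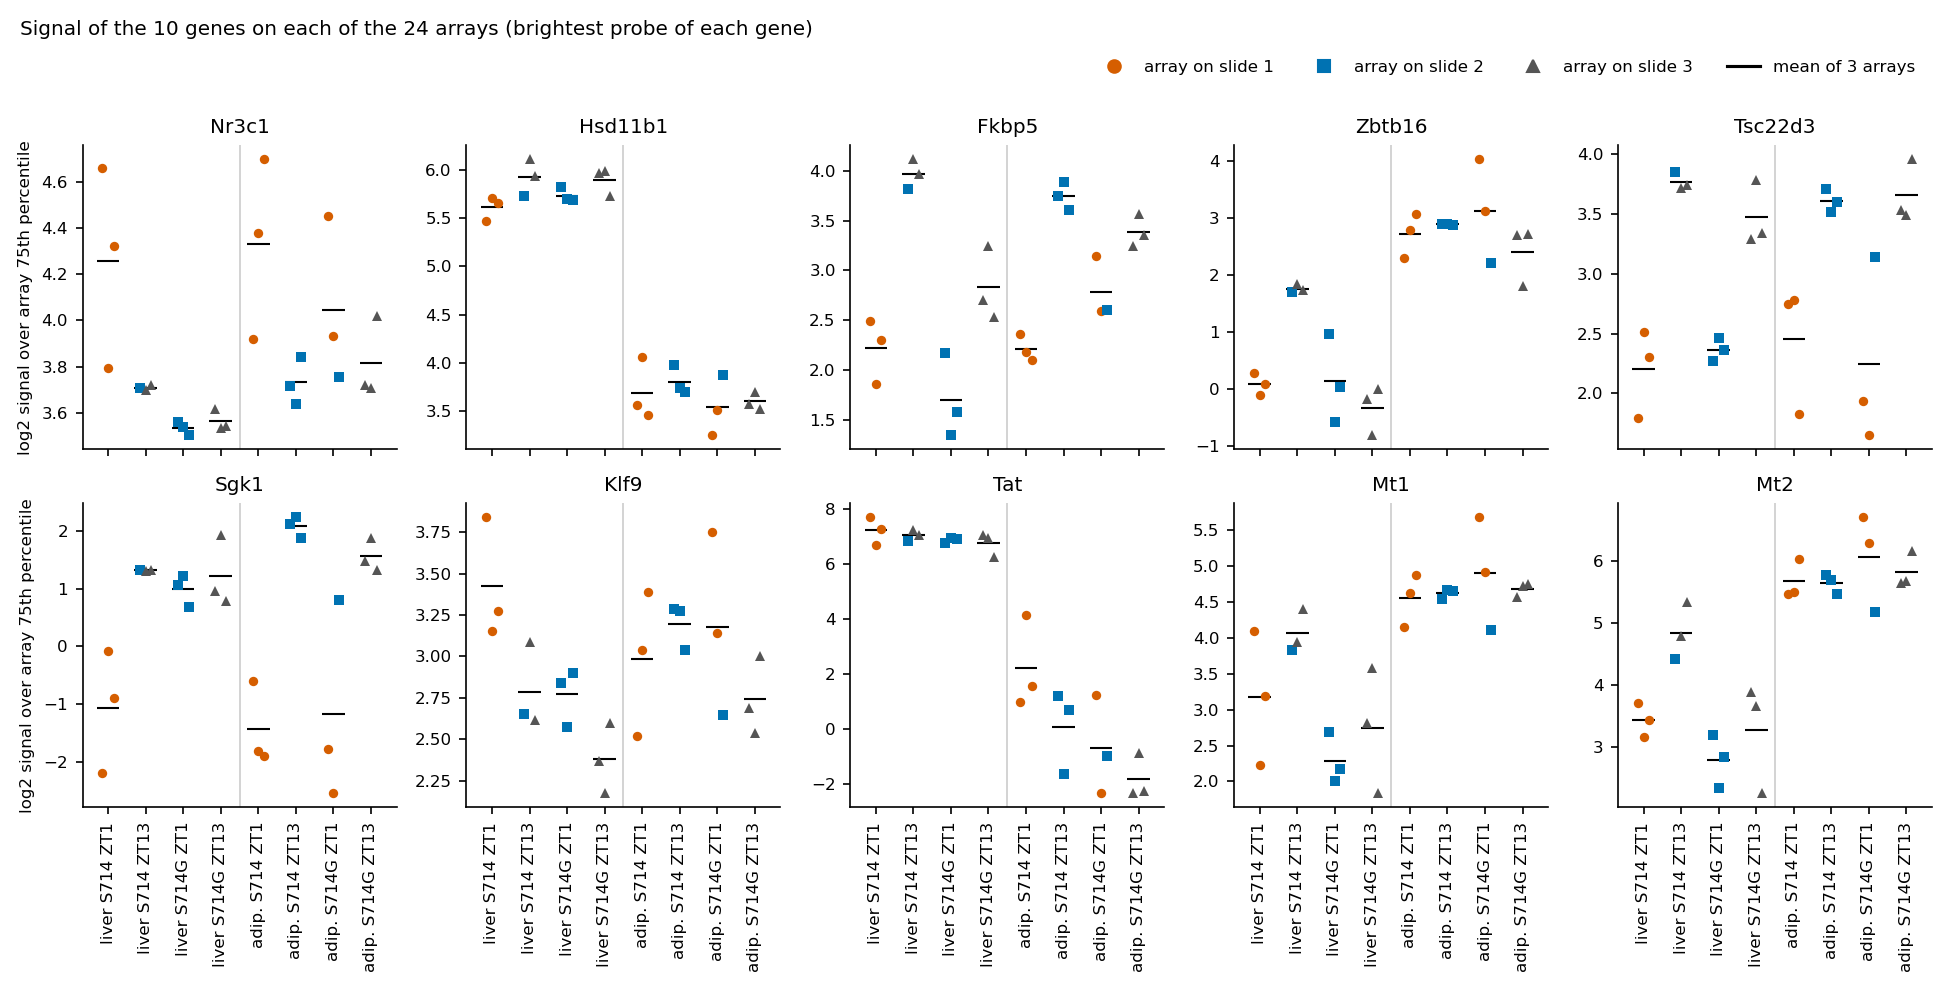
Log2 signal of the brightest probe of each gene on each array, by group, with liver on the left and adipose tissue on the right of the grey line; colour and shape give the slide, and the bar is the mean of 3 arrays. Zbtb16 and Fkbp5 are high in liver S714 ZT13 (means 1.76 and 3.97) and lower in liver S714G ZT13 (-0.33 and 2.83), and Sgk1 is below 0 on all 8 arrays of slide 1.

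In liver at ZT13, near the daily corticosterone peak, Zbtb16 and Fkbp5 were lower in mutants than in controls, and these were the 2 of 10 genes that passed the test. Zbtb16 fell by 2.09 ± 0.33 (SE), a 4.26-fold difference, and Fkbp5 fell by 1.14 ± 0.26, a 2.20-fold difference. Both metallothionein genes lay 1.32 and 1.57 lower without passing. The receptor Nr3c1, the hormone-activating enzyme Hsd11b1, Tsc22d3, Sgk1, Klf9 and Tat differed by 0.40 or less and did not pass. The test was limma over all 30816 probes fitted in liver with Benjamini-Hochberg adjustment, and an adjusted p under 0.05 counts as passing; 3.0% of all probes passed. In whole tissue, fewer cells of a type and less RNA per cell cannot be told apart.

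Zbtb16, a zinc finger transcription factor (probe at chr9:48462419-48462478, mm9, minus strand), read 1.70, 1.85 and 1.73 in control liver at ZT13. Mutant livers at ZT13 read -0.18, -0.81 and -0.01. The groups did not overlap, and the adjusted p was 0.00715. Control livers at ZT1 stood at 0.28, -0.10 and 0.10, and mutant livers at ZT1 at 0.97, -0.58 and 0.03, so the control ZT13 group was the only liver group whose 3 arrays were all above 1. The gene passed under all 20 alternative settings of this comparison, with differences between -2.25 and -1.85. On slide 3 alone, 3 mutant against 2 control arrays, the difference was -2.12 ± 0.26 with adjusted p = 0.0204, where 5.03% of all probes passed.

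Fkbp5 (probe at chr17:28536060-28536119, mm9, minus strand) read 3.82, 4.12 and 3.97 in control liver at ZT13 and 2.71, 3.24 and 2.53 in mutant liver. The groups did not overlap and the adjusted p was 0.0387. On slide 3 alone the difference was -1.21 ± 0.23, with adjusted p = 0.049. The call was less steady than that of Zbtb16: it was lost under 8 of 20 alternatives, among them each omission of 1 control array and of mutant replicate 1 or 3, with adjusted p between 0.012 and 0.153 over the alternatives. The difference itself stayed between -1.35 and -0.99.

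Mt2 (probe at chr8:96697371-96697430, mm9, plus strand) read 4.41, 4.78 and 5.32 in control liver at ZT13 and 3.89, 3.66 and 2.25 in mutant liver, a difference of -1.57 ± 0.40 with adjusted p = 0.063. Mt1, its neighbour (brighter probe at chr8:96704165-96704224, 6794 bases away), read 3.83, 3.94 and 4.40 in controls and 2.81, 3.58 and 1.83 in mutants, a difference of -1.32 ± 0.48 with adjusted p = 0.198. In both genes all mutants were below all controls, and mutant replicate 3 was the lowest. The longest run of bases shared by the Mt1 and Mt2 probes was 7 of 60. Mt2 passed when slide was modelled as a fixed block (-1.79 ± 0.39, adjusted p = 0.0189) or as a random block (-1.72 ± 0.38, adjusted p = 0.021), but not on slide 3 alone (-1.79 ± 0.52, adjusted p = 0.113). It also passed by limma with median centring (-1.61 ± 0.38, adjusted p = 0.0497), but not with quantile normalization (-1.44 ± 0.38, adjusted p = 0.095).

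Counted by rank alone, 6 of 10 genes had all 3 mutant livers below all 3 control livers at ZT13: Nr3c1, Fkbp5, Zbtb16, Klf9, Mt1 and Mt2. None had the reverse. Of all probes, 15.5% had this order. The median difference over the 10 genes was -0.35, and over all probes it was 0.02. Klf9 differed by -0.40 ± 0.21 (adjusted p = 0.421), and the brighter Nr3c1 probe by -0.15 ± 0.19 (adjusted p = 0.823). Nr3c1 was counted by this brighter probe, and its dimmer probe overlapped between the groups (-0.06 ± 0.22). Summed hepatocyte markers (7 of 8 on the array) ranged from 1211 to 1910 in these controls and from 998 to 1732 in the mutants, and macrophage markers (6) from 33.95 to 34.55 and from 30.21 to 38.09, where a sum is of linear signals relative to the 75th percentile. Both ranges overlap. The sums of 4 markers listed for brown adipocytes, 3 of them well above background, did not overlap (15.19 to 18.6 in controls, 12.88 to 13.59 in mutants). These sums were lower in adipose tissue (4.76 to 10.59), so in liver they cannot be read as a mark of brown adipocytes. Those of 4 pancreas acinar markers, 1 of them well above background, did not overlap either (0.1883 to 0.2693 and 0.07088 to 0.1409). The part of these markers in the differences was not tested.

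**Figure D2:**
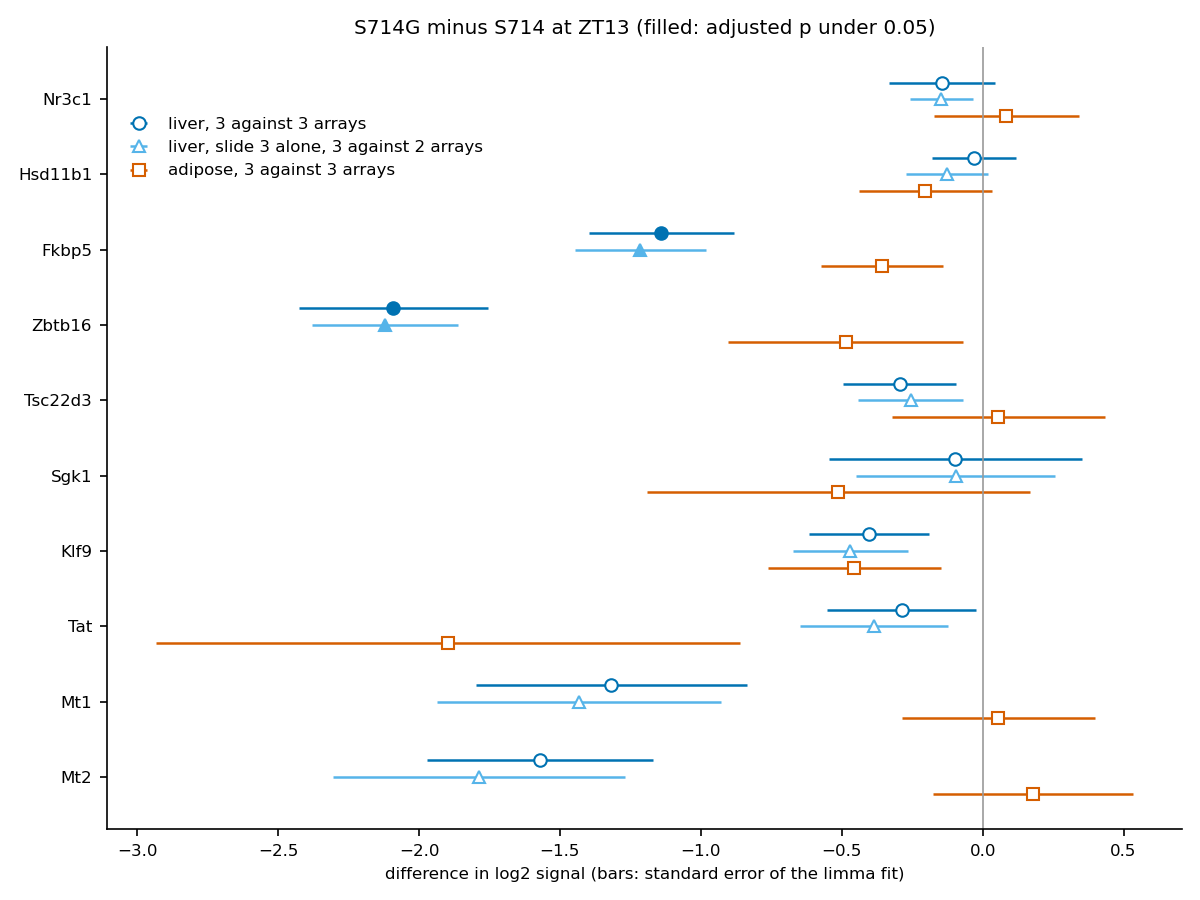
Difference between mutant and control at ZT13 for each gene (x axis, log2 signal; bars are standard errors of the fit), in liver, in liver on slide 3 alone, and in adipose tissue; filled symbols have an adjusted p under 0.05. Zbtb16 (-2.09) and Fkbp5 (-1.14) are filled in liver in both versions, and no adipose value is filled.

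Between ZT1 and ZT13, 7 of 10 genes passed in control liver: Fkbp5, Sgk1, Zbtb16, Tsc22d3 and Mt2 rose, and Nr3c1 and Klf9 fell. The background was high in this comparison, since 50.5% of all probes passed, and time cannot be told apart from slide in control liver: the ZT1 arrays were on slide 1 and the ZT13 arrays on slides 2 and 3. In mutant liver 1 of 10 genes passed, Tsc22d3, against 1.95% of all probes. There the ZT1 arrays were on slide 2 and the ZT13 arrays on slide 3.

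Fkbp5 rose by 1.75 ± 0.26 (adjusted p = 0.000331) in control liver, from 2.49, 1.86 and 2.30 at ZT1 to the ZT13 values given above. In mutant liver it was at 2.17, 1.34 and 1.58 at ZT1 and lay 1.13 ± 0.26 higher at ZT13, with adjusted p = 0.0507. All ZT13 arrays were above all ZT1 arrays in both genotypes. Fitted on the 9 liver arrays of slides 2 and 3, an alternative chosen after the data had been seen, the mutant difference was the same and passed (adjusted p = 0.0336). With slide as a fixed block over both tissues the differences were 1.88 ± 0.49 (adjusted p = 0.1) in controls and 0.91 ± 0.43 (adjusted p = 0.686) in mutants. The courses of the 2 genotypes were not shown to differ (interaction -0.62 ± 0.36, adjusted p = 0.207), but with arrays centred on their median the interaction passed at -1.17 ± 0.33 (adjusted p = 0.0198).

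Zbtb16 rose by 1.67 ± 0.33 (adjusted p = 0.00196) in control liver, while in mutant liver ZT13 minus ZT1 was -0.47 ± 0.33 (adjusted p = 0.602). These courses differed: the interaction of genotype and time was -2.14 ± 0.47, adjusted p = 0.00766, where 30.8% of all probes passed. The interaction passed under all 24 alternatives, between -3.53 and -1.72, including slide as a fixed block (-3.53 ± 0.75, adjusted p = 0.0306). The slide 1 offset in that block comes from adipose S714G ZT1, where Zbtb16 stepped by -1.37 between slides. The block therefore does not test slide in liver, where control ZT1 arrays were all on slide 1. The control rise alone was 2.97 ± 0.73 with that block (adjusted p = 0.0842). Zbtb16 was the one gene of the 10 whose daily course differed between genotypes under every setting run.

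Tsc22d3, the leucine zipper protein through which glucocorticoids restrain inflammatory signalling (probe at chrX:137074094-137074153, mm9, minus strand), rose in both genotypes. Control livers went from 1.79, 2.51 and 2.30 to 3.85, 3.71 and 3.74, a rise of 1.57 ± 0.20 (adjusted p = 0.000149). Mutant livers went from 2.27, 2.46 and 2.36 to 3.29, 3.79 and 3.34, a rise of 1.11 ± 0.20 (adjusted p = 0.019). Unlike Zbtb16, its ZT13 level did not differ detectably between genotypes (-0.29 ± 0.20, adjusted p = 0.568). With slide as a fixed block the changes were 0.29 ± 0.50 (adjusted p = 0.877) in controls and 1.23 ± 0.44 (adjusted p = 0.443) in mutants. The mutant call was also lost without any 1 of the ZT1 arrays or ZT13 replicate 2 or 3, with adjusted p between 0.0645 and 0.0867. The interaction was -0.46 ± 0.28, adjusted p = 0.232. Median centring gave -1.0 ± 0.34 (adjusted p = 0.042) for it and 0.67 ± 0.24 (adjusted p = 0.0409) for the genotype difference at ZT1, both passing.

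Sgk1, a kinase that controls ion transport and cell survival (probe at chr10:21719507-21719566, mm9, plus strand), rose by 2.38 ± 0.45 (adjusted p = 0.00138) in control liver, from -2.20, -0.08 and -0.90 to 1.32, 1.31 and 1.33. Mutant livers read 1.07, 1.22 and 0.69 at ZT1 and 0.96, 1.93 and 0.79 at ZT13, with no passing change (0.23 ± 0.45, adjusted p = 0.883). The interaction passed at -2.15 ± 0.63, adjusted p = 0.026. Over both tissues, however, the signal followed the slide: all 8 arrays of slide 1 were between -2.55 and -0.08 and all 16 arrays of slides 2 and 3 between 0.69 and 2.24. Such a full separation, with slide 1 lower, was seen for 922 of 34840 probes (2.65%). The arrays of slide 1 were all ZT1, and the ZT1 arrays on the other slides were all mutant. With slide as a fixed block the control change was -0.58 ± 0.92 (adjusted p = 0.866) and the interaction 0.81 ± 0.95 (adjusted p = 0.843), so both turned direction. The slide 1 offset behind these values comes from adipose S714G ZT1 alone, so they do not test slide in liver. The interaction was also lost without mutant ZT1 replicate 2, control ZT13 replicate 3, or mutant ZT13 replicate 1 or 3 (adjusted p between 0.0516 and 0.0631).

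Sgk1 divided by slide within the group from which the fixed block takes the slide 1 offset. In adipose S714G ZT1, replicates 1 and 2 on slide 1 read -1.77 and -2.55 and replicate 3 on slide 2 read 0.81, a step of 2.96 over their mean. The fixed-block values above rest on this same step, so the step and those values are not separate observations. Only 0.56% of 33747 probes had a larger step in this group, and the median step was 0.69 in size. Tsc22d3 stepped by 1.35 and Zbtb16 by -1.37 between the same arrays, sizes exceeded by 18.4% and 18% of probes. In liver S714 ZT13, replicate 1 on slide 2 and replicates 2 and 3 on slide 3 gave nearly one value for Sgk1, with a step of 0.0029.

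**Figure D3:**
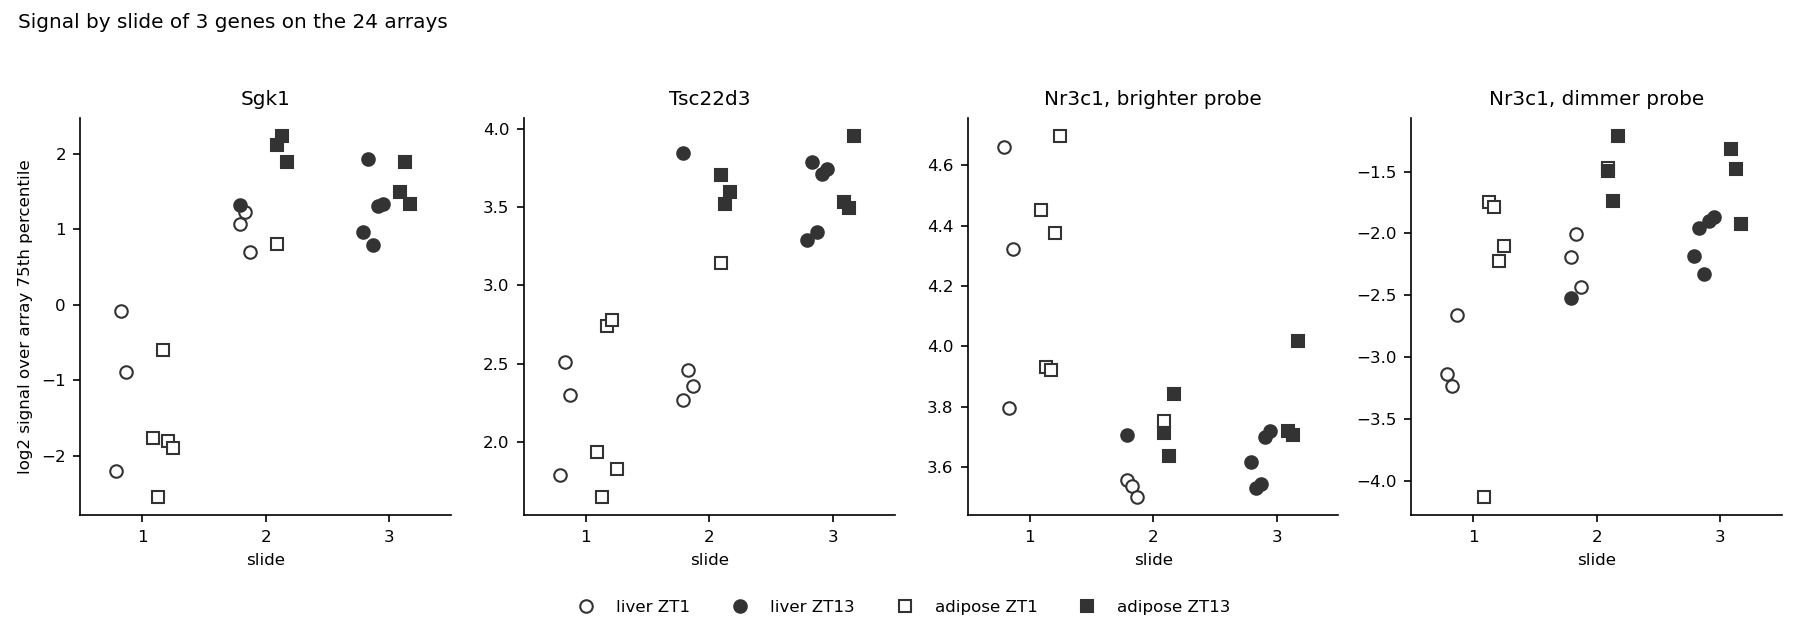
Log2 signal of Sgk1, Tsc22d3 and both Nr3c1 probes on the 24 arrays, by slide (x axis); circles are liver and squares adipose tissue, open symbols ZT1 and filled symbols ZT13. Sgk1 is below 0 on all 8 arrays of slide 1, which are all ZT1, and above 0 on all 16 others. The ZT1 arrays among those others are all mutant. Tsc22d3 on slide 2 is at 2.27 to 2.46 in the liver ZT1 arrays and at 3.85 in the liver ZT13 array.

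Nr3c1, the receptor, had 2 probes on chromosome 18 that did not move together. The brighter (chr18:39571641-39571700, mm9, minus strand) read 4.66, 3.79 and 4.32 in control liver at ZT1 and 3.71, 3.70 and 3.72 at ZT13, a fall of 0.55 ± 0.19 (adjusted p = 0.0307). The dimmer (chr18:39574183-39574242) read -3.14, -3.23 and -2.66 at ZT1, the last not well above background, and -2.52, -1.90 and -1.86 at ZT13, a rise of 0.91 ± 0.22 (adjusted p = 0.00597). A direction for the receptor's transcript in control liver is therefore not given by these probes. In mutant liver the brighter probe stood at 3.56, 3.54 and 3.50 at ZT1 and 3.62, 3.53 and 3.54 at ZT13. Centring arrays on their median in place of the 75th percentile turned the brighter probe's control change to 0.09 ± 0.18 (adjusted p = 0.682), and with slide as a fixed block neither probe passed.

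Klf9, a repressor induced by both glucocorticoid and thyroid hormone (probe at chr19:23240410-23240469, mm9, plus strand), read 3.84, 3.15 and 3.28 in control liver at ZT1 and 2.65, 3.09 and 2.62 at ZT13, a fall of 0.64 ± 0.21 (adjusted p = 0.0276). All control ZT1 arrays were above all control ZT13 arrays. Median centring gave 0.0037 ± 0.19 (adjusted p = 0.989) and the fixed slide block 0.03 ± 0.51 (adjusted p = 0.99), so the direction does not hold across scalings. Median centring moved every control difference between the times in liver by 0.64. Mutant livers stood at 2.84, 2.57 and 2.90 at ZT1 and 2.37, 2.17 and 2.60 at ZT13.

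The metallothioneins followed each other in liver. In control liver Mt2 rose by 1.41 ± 0.40 (adjusted p = 0.0132) from 3.70, 3.16 and 3.42 at ZT1 (without ZT13 replicate 3, adjusted p = 0.0557; with slide as a fixed block 2.30 ± 0.71, adjusted p = 0.171), while Mt1 stood at 4.09, 2.23 and 3.19 at ZT1 and its difference of 0.89 ± 0.48 did not pass (adjusted p = 0.142), though it did with median centring (1.53 ± 0.46, adjusted p = 0.0142). In mutant liver Mt2 was at 3.19, 2.34 and 2.83 and Mt1 at 2.68, 2.01 and 2.17 at ZT1, and neither passed by ZT13 (0.48 ± 0.40 and 0.45 ± 0.48, adjusted p = 0.672 and 0.756). Marker sums moved with time in liver of both genotypes. Macrophage sums were 44.72 to 48.13 at ZT1 and 33.95 to 34.55 at ZT13 in controls, and 39.34 to 44.67 and 30.21 to 38.09 in mutants. Lymphocyte and endothelial sums were also lower at ZT13 without overlap in both genotypes, and neutrophil sums in controls (1.28 to 1.513 and 0.4066 to 0.6151). On control liver arrays 1 to 5 of 6 neutrophil markers and 2 to 5 of 6 lymphocyte markers were well above background. Adipocyte sums were higher at ZT13 in controls (11.08 to 12.7 and 13.23 to 14.06). In mutants they were lower (17.54 to 20.57 and 13.44 to 16.54), also without overlap. The part of all these markers in the daily changes was not tested.

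Tat and Hsd11b1 had no passing difference between the liver groups under the 75th percentile scaling. Median centring moves their control daily change in liver by 0.64, their liver genotype difference at ZT1 by 0.51 and their liver interaction by -0.54. The lack of a difference is therefore stated for the main scaling only. Tat (probe at chr8:112523207-112523266, mm9, plus strand) had group means between 6.76 ± 0.43 and 7.23 ± 0.50 (SD, n = 3). Hsd11b1 (probe at chr1:195048169-195048228, mm9, minus strand) had means between 5.61 ± 0.13 and 5.93 ± 0.19. Its control ZT13 livers (5.73, 6.11 and 5.93) were all above its control ZT1 livers (5.47, 5.71 and 5.66), a difference of 0.32 ± 0.15 with adjusted p = 0.0976. For Hsd11b1 the 10 spots of an array differed by an SD of 0.02 to 0.27.

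**Figure D4:**
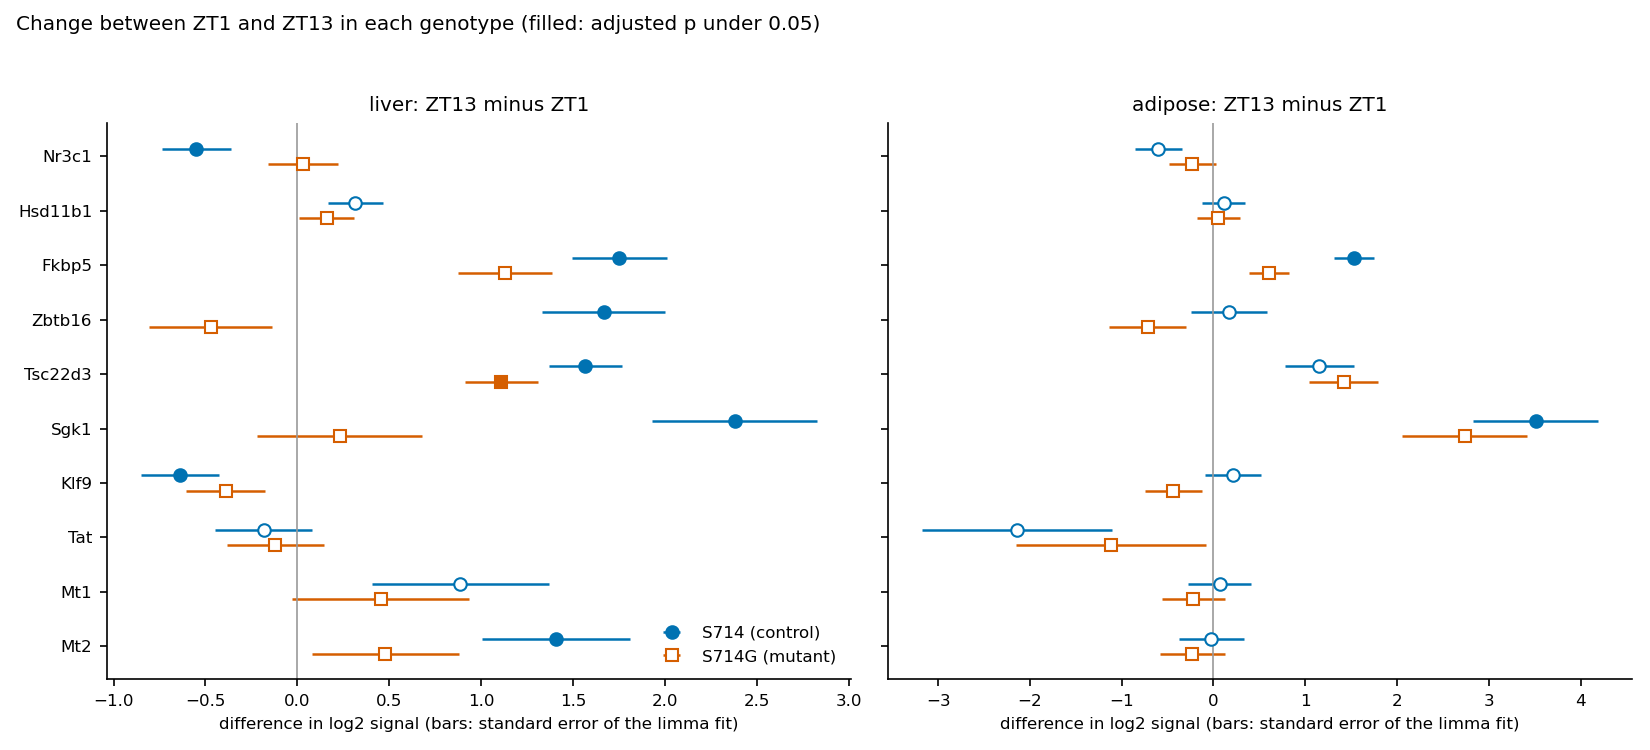
ZT13 minus ZT1 for each gene in control and mutant mice (x axis, log2 signal; bars are standard errors of the fit), liver on the left and adipose tissue on the right; filled symbols have an adjusted p under 0.05. In liver Zbtb16 is at 1.67 in controls and -0.47 in mutants, while Tsc22d3 is filled in both genotypes (1.57 and 1.11).

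In liver at ZT1, 3 of 10 genes passed between genotypes, against 44.3% of all probes. Sgk1 was 2.05 ± 0.45 higher in mutants (adjusted p = 0.00429), the brighter Nr3c1 probe 0.73 ± 0.19 lower (adjusted p = 0.0101) and Klf9 0.65 ± 0.21 lower (adjusted p = 0.0289). The dimmer Nr3c1 probe was higher by 0.80 ± 0.22 (adjusted p = 0.0139), again opposite to the brighter. Control arrays were all on slide 1 and mutant arrays all on slide 2, so genotype and slide cannot be told apart here; with slide as a fixed block, fitted over both tissues, none of the 10 genes passed, Sgk1 was at -0.91 ± 0.80 (adjusted p = 0.806) and Klf9 at 0.15 ± 0.44 (adjusted p = 0.959). Hepatocyte marker sums were 1732 to 1890 in these controls and 1228 to 1247 in the mutants, and adipocyte marker sums (8 markers) 11.08 to 12.7 and 17.54 to 20.57; their part in the differences was not tested. Fkbp5 and Zbtb16, the genes that separated the genotypes at ZT13, differed by -0.52 ± 0.26 (adjusted p = 0.12) and 0.05 ± 0.33 (adjusted p = 0.916) at ZT1.

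In adipose tissue no gene of the 10 passed between genotypes, at ZT1 (0% of all probes passed) or at ZT13 (0.0385%). The ZT13 controls were all on slide 2 and the ZT13 mutants all on slide 3, so genotype and slide cannot be told apart at that time. By limma with no adjustment, 2611 probes at ZT1 and 1658 at ZT13 had p under 0.05 of 33787. The brighter probe of every one of the 10 genes had an adjusted p of 0.558 (Tat at ZT1) or more by limma. Fkbp5 read 2.36, 2.18 and 2.10 in controls and 3.15, 2.60 and 2.60 in mutants, a difference of 0.57 ± 0.22 with adjusted p = 0.573. At ZT13 it read 3.74, 3.89 and 3.61 in controls and 3.25, 3.56 and 3.36 in mutants, a difference of -0.36 ± 0.22 with adjusted p = 1. Mutants were above controls at ZT1 and below them at ZT13 without overlap, but the interaction of -0.93 ± 0.31 did not pass (adjusted p = 0.507; 0.0918% of all probes passed).

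Zbtb16 in adipose tissue read 2.90, 2.90 and 2.88 in controls at ZT13 and 2.70, 1.81 and 2.72 in mutants, and Klf9 read 3.28, 3.27 and 3.04 against 2.69, 2.54 and 3.0. With Fkbp5 these were the 3 of 10 genes in which all mutants were below all controls, an order that 10.4% of all probes had. This order is between slides as much as between genotypes, since controls were on slide 2 and mutants on slide 3. Zbtb16 differed by -0.49 ± 0.42 and Klf9 by -0.46 ± 0.31. In these groups macrophage marker sums were 34.39 to 49.89 in controls and 20.3 to 31.3 in mutants and endothelial sums (4 markers) 9.795 to 12.66 and 14.34 to 16.54; their part in the differences was not tested. The difference between tissues of the genotype effect did not pass for any of the 10 genes, at ZT1 (1.37% of all probes passed) or at ZT13 (0.164%). At ZT13 it was -1.61 ± 0.56 for Zbtb16 (adjusted p = 0.48) and -1.75 ± 0.56 for Mt2 (adjusted p = 0.381), so the genotype effects were not shown to differ between tissues.

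Between ZT1 and ZT13, 2 of 10 genes passed in control adipose tissue, against 14.4% of all probes, and 0 of 10 in mutant adipose tissue, against 1.55%. Fkbp5 rose by 1.53 ± 0.22 (adjusted p = 0.00642) in controls and was 0.61 ± 0.22 higher in mutants (adjusted p = 0.132). With slide as a fixed block the control difference was 1.81 ± 0.43 (adjusted p = 0.106). Sgk1 rose by 3.51 ± 0.68 (adjusted p = 0.0182), from -0.59, -1.81 and -1.89 to 2.12, 2.24 and 1.88, with the slides divided as described above, and with slide as a fixed block it was at 0.55 ± 0.80 (adjusted p = 0.89). That call was also lost without ZT1 replicate 3 or any 1 of the ZT13 arrays (adjusted p between 0.0504 and 0.067). Without mutant ZT1 replicate 3, the array on slide 2, 3 of the 10 genes passed in mutant adipose tissue. In that fit the ZT1 arrays were all on slide 1 and the ZT13 arrays all on slide 3, so time and slide cannot be told apart. The share of all probes passing in it is not given, so the count has no background beside it. Tsc22d3 lay 1.16 ± 0.38 higher at ZT13 in controls (adjusted p = 0.0598) and 1.42 ± 0.38 higher in mutants (adjusted p = 0.0844), without overlap in either genotype. The control value passed with median centring (1.66 ± 0.46, adjusted p = 0.0312) and quantile normalization (1.37 ± 0.40, adjusted p = 0.046), and turned to -0.20 ± 0.44 (adjusted p = 0.935) with slide as a fixed block. Macrophage sums in adipose tissue were 63.75 to 71.31 at ZT1 and 34.39 to 49.89 at ZT13 in controls, and 72.46 to 109.9 and 20.3 to 31.3 in mutants. Fibroblast sums (5 markers) were 303.3 to 332.1 and 213.4 to 247.4 in controls, and 273.1 to 388.7 and 205.7 to 253.4 in mutants; the part of these markers in the daily changes was not tested. In mutant adipose tissue limma gave unadjusted p under 0.05 for 8751 probes, and Fkbp5, Sgk1 and Tsc22d3 were among them. Zbtb16, Mt1 and Mt2, which rose or lay higher at ZT13 in control liver, differed by 0.17 or less between the times in control adipose tissue. These small values hold under this scaling: median centring gave 0.68, 0.58 and 0.48, and the fixed slide block 1.54, 1.26 and 1.30, none passing.

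Averaged over genotypes and times, 6 of 10 genes differed between tissues, against 74.1% of all probes. Tat was 7.02 ± 0.41 higher in liver (adjusted p = 4.55e-12) and Hsd11b1 2.13 ± 0.09 higher (adjusted p = 5.51e-14). Zbtb16 was 2.37 ± 0.20 lower in liver than in adipose tissue, Mt2 2.21 ± 0.20, Mt1 1.62 ± 0.22 and Fkbp5 0.35 ± 0.12 (adjusted p = 0.0113). All of these passed under each alternative except Fkbp5 with median centring (adjusted p = 0.0776). Nr3c1, Sgk1, Tsc22d3 and Klf9 did not pass. The adipose arrays of Mt2 ran from 5.17 to 6.70, and the liver arrays from 2.25 to 5.32, so that 1 liver array, replicate 3 of S714 ZT13, reached the adipose range.

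The order of the 8 groups shows where neighbours can be told apart by their ranges. For Fkbp5 the control ZT13 groups of liver (3.97 ± 0.15, SD, n = 3) and adipose tissue (3.75 ± 0.14) came first and overlapped, followed by adipose S714G ZT13 (3.39 ± 0.16), liver S714G ZT13 (2.83 ± 0.37) and adipose S714G ZT1 (2.78 ± 0.32). The other ZT1 groups came last, at 2.22 ± 0.33, 2.21 ± 0.14 and 1.70 ± 0.43, and overlapped one another in order. For Zbtb16 the 4 adipose groups (2.41 ± 0.52 to 3.13 ± 0.91) and liver S714 ZT13 (1.76 ± 0.08) formed a chain of overlapping neighbours, and the remaining liver groups (-0.33 ± 0.43 to 0.14 ± 0.78) were separate from it. For Tsc22d3 the 4 ZT13 groups, from 3.47 ± 0.27 to 3.77 ± 0.07, stood above the 4 ZT1 groups, from 2.20 ± 0.37 to 2.45 ± 0.54, in either tissue and genotype. The means of Fkbp5 and Sgk1 were ordered by time as well, but with overlap between the times.

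Tat in adipose tissue varied more than any other of the genes, from -2.33 to 4.14 over 12 arrays. Control arrays read 0.98, 4.14 and 1.59 at ZT1 and 1.21, -1.62 and 0.69 at ZT13, and mutant arrays 1.24, -2.33 and -0.97 at ZT1 and -2.31, -0.86 and -2.24 at ZT13. Tat is an enzyme of hepatocytes, and the hepatocyte marker sum in the same adipose arrays ran from 3.02 to 577.5. It was 134.6, 577.5 and 159.9 in the control ZT1 arrays, 128.4, 37.1 and 121.9 in the control ZT13 arrays, 136.8, 3.02 and 62.22 in the mutant ZT1 arrays and 26.41, 69.47 and 28.09 in the mutant ZT13 arrays. The array with the highest sum had the highest Tat and the array with the lowest sum the lowest. In liver the sums were 998 to 1910. The part of hepatocyte RNA in the adipose Tat values was not tested, and the adipose differences of Tat (-2.93 ± 1.04 at ZT1 and -1.90 ± 1.04 at ZT13 between genotypes) did not pass.

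**Figure D5:**
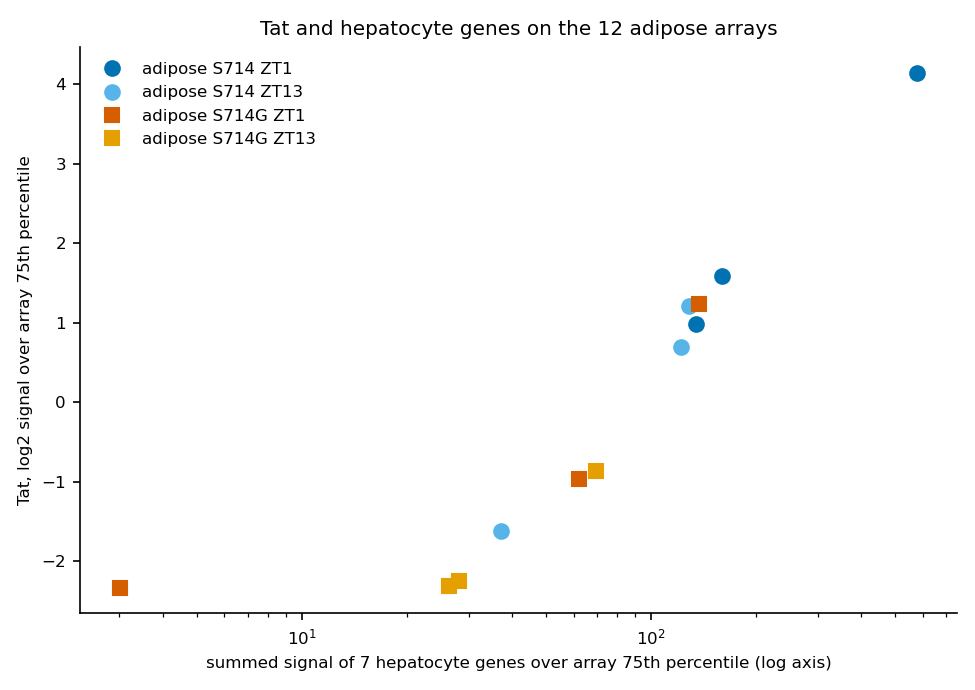
Tat (y axis, log2 signal) against the summed linear signal of 7 hepatocyte genes (x axis, log scale) on the 12 adipose arrays, coloured by group. Points climb together from the mutant ZT1 array at a sum of 3.02 (Tat -2.33) to the control ZT1 array at 577.5 (Tat 4.14), within groups as well as between them.

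The second Mt1 probe (chr8:96703844-96703903, mm9, plus strand), 321 bases from the brighter, was dim. It was not well above background on every array of any liver group and was not fitted in liver alone; in adipose tissue it read between -4.08 and -0.92. The brighter Mt1 probe in adipose tissue read 4.15, 4.63 and 4.88 in controls at ZT1, 4.54, 4.67 and 4.66 in controls at ZT13, 5.67, 4.91 and 4.10 in mutants at ZT1 and 4.56, 4.72 and 4.75 in mutants at ZT13. Its adipose differences between genotypes and times were 0.34 or less in size. The dimmer probe differed by -1.61 ± 0.55 between genotypes at ZT13 (adjusted p = 0.79), where the brighter differed by 0.06 ± 0.34.

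Other glucocorticoid targets, a list of 20 genes all fitted in both tissues, gave 1 gene up and 3 down in mutant liver at ZT13. There 3.0% of all probes passed, and the median of the list was -0.32 beside 0.02 over all probes. Dusp1, a phosphatase that ends MAP kinase signalling, fell by 1.92 ± 0.24 (adjusted p = 0.00218), Cebpd, a transcription factor, by 1.07 ± 0.14 (0.00306), and Pck1, the gluconeogenic enzyme, by 1.06 ± 0.22 (0.0267). Pdk4, which restrains glucose oxidation, rose by 2.41 ± 0.29 (0.00166). In control liver 7 rose and 4 fell from ZT1 to ZT13 (median 0.25, all probes -0.12), where 50.5% of all probes passed and time and slide are confounded, among them Cebpd (up 1.31 ± 0.14), Errfi1 (up 2.39 ± 0.27) and Pdk4 (down, -3.70 ± 0.29). In mutant liver 0 of 20 passed by limma, where 1.95% of probes passed and 4384 had an unadjusted p under 0.05. Liver at ZT1, where genotype and slide cannot be told apart, gave 3 up and 7 down against 44.3% of all probes, and the liver interaction 4 up and 6 down against 30.8%. In adipose tissue 0 of 20 passed between genotypes, against 0% of all probes at ZT1 and 0.0385% at ZT13. By ZT13, 2 rose in controls (Errfi1 and Nfkbia), against 14.4% of all probes, and 1 in mutants (Cdkn1a), against 1.55%.

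Genes of hormone supply and receptor partners were fitted for 14 of 15 genes in liver. None passed between genotypes at ZT13 in liver (median -0.03). At ZT1 in liver, with the genotypes on different slides and 44.3% of all probes passing, 4 were higher and 1 lower in mutants. Among them were Serpina6, which encodes corticosteroid-binding globulin, higher by 0.92 ± 0.19, and the chaperone genes Fkbp4 (up 1.09 ± 0.25) and Hsp90aa1 (up 0.58 ± 0.17). In control liver 6 rose and 1 fell by ZT13, against 50.5% of all probes, with Serpina6 up 1.29 ± 0.19 and the mineralocorticoid receptor gene Nr3c2 down (-1.01 ± 0.23). The zinc genes, 6 of 7 fitted, gave none between genotypes at ZT13 in liver (median 0.15). In control liver 2 of these 6 rose and 1 fell by ZT13 against 50.5% of all probes, and Mtf1, the metal sensor that drives metallothionein genes, was among those that rose (1.15 ± 0.33, adjusted p = 0.0147). Of 10 acute phase genes, 0 passed between genotypes in liver at ZT13 (median 0.08), and 2 were higher and 3 lower in mutants at ZT1, against 44.3% of all probes.

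Genes with the most similar course over the 12 arrays of a tissue were found by the root mean square distance between mean-centred log2 profiles. For Fkbp5 in liver they were Yod1 (distance 0.32), Cebpd (0.35), Pip5k1a (0.41), Ppp1r10 (0.43) and Smad9 (0.44), of 5113 candidates. For Zbtb16 in liver they were Tox (0.45), Sprn, Fibin, Slc38a2 and Il6ra (0.51). These lay 1.16 to 1.75 lower in mutants at ZT13, which follows from choosing them by likeness to Zbtb16 on the same arrays. Mt2 was nearest to Mt1 in liver (0.40), followed by Fmo2, Rasgef1b, Por and Mcart1. In adipose tissue Mt2 was not among the 5 nearest to Mt1 (Zfp574, Zfp771, Id1, Zkscan6 and Tnrc6c, 0.10 to 0.15), whereas Klf9 was among those of Zbtb16 (0.24), with Slc4a4, Lrrc61, Por and Rap2b. Arrays share slides and scaling, which these distances include.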

How the data were processed

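Total RNA of 24 samples was labelled with Cy3 and hybridised to 1-colour Agilent mouse arrays with probe positions on mm9. Spot intensity in the deposited files, in arbitrary units, came from Feature Extraction 10.7.3.1 per the file headers, background-subtracted and not scaled between arrays, and other columns of 0 or 1 flags for background, saturation and outliers. The deposited value table is on a log2 scale: each column equalled log2 processed signal minus a constant within 0.01 for 100% of its probes, with medians between -3.92 and -3.03.

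Controls and outlier spots (0.238% to 0.685%) were left out, spots of a probe averaged, and log2 signal set to each array's 75th percentile. Probes were fitted if some group had all 3 of its arrays well above background, and a gene is its brightest fitted probe. Contrasts were tested with limma 3.58.1 (R 4.3.3) over 12 arrays per tissue, or 24 for tissue contrasts, adjusted over all probes; SE is that of the fit. The script was tested on simulated data. Alternatives covered scaling, background correction, filter, slide, replicate block and omitted arrays. The number of arrays limits the precision.

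All 10 genes are named, other lists by at most 4 called genes of lowest p, and neighbours by distance among genes with an SD of at least 0.5 times the member's. Genes and lists were chosen with earlier results of these data known. Promoters are RefSeq's. Data handling used data.table (1.17.8) in R; pandas 2.3.3, numpy 2.4.6 and matplotlib 3.10.9 ran under Python 3.11.15.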

Additional observations from a re-analysis of the deposited data

Results flagged for a closer look

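The change from ZT1 to ZT13 differed between genotypes in liver for 2 of the 10 genes by a test of the interaction (limma, adjusted over all probes), where 30.8% of all probes passed. For Zbtb16 the mutant change minus the control change was -2.14 ± 0.47 (SE), adjusted p = 0.00766: 3 of 3 control arrays at ZT13 were above all control arrays at ZT1, and the mutant times overlapped. For Sgk1 it was -2.15 ± 0.63, adjusted p = 0.026. In that gene the 8 arrays of slide 1, all ZT1, were lower than the other 16 in both tissues. With slide as a fixed block over both tissues the interaction was 0.81 ± 0.95, adjusted p = 0.843. That block takes the slide 1 offset from the arrays of adipose S714G ZT1 alone.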

How the results depend on the processing

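Of single-gene values under the alternatives, 2903 kept their side of the threshold and direction, 74 lost the call, 66 gained it, 148 turned direction with no call in either fit and 9 turned direction with a call in at least 1 of them. With slide as a fixed block, 0 of 10 genes passed in the control daily changes of both tissues, the mutant liver daily change and liver at ZT1, and 1 in the liver interaction; Sgk1 turned to -0.58 (control liver daily change), -0.91 (liver at ZT1) and 0.81 (interaction), Klf9 to 0.029 and 0.15, and the dimmer Nr3c1 probe to -0.98 and -0.67 in the first 2 of these. With slide as a random block, 1 passed in control adipose tissue, 3 in the control liver daily change, 0 in the mutant liver daily change, 0 in liver at ZT1 and 1 in the interaction. Median centring turned Klf9 to 0.0037 and the brighter Nr3c1 probe to 0.093 in the control liver daily change. It gave 5 genes in the liver interaction, where it moved the value of every probe by -0.54. In liver at ZT13, Mt2 passed under median centring and under both slide blocks. The share of all probes passing under each alternative is not given beside the counts of this section, so the counts cannot be read against a background. In the mutant liver daily change 2 passed under median centring, normexp, the intensity trend, 1 probe per gene, the filter on every array and slides 2 and 3 alone, and 0 with no filter. With no filter 1 passed in liver at ZT13 and 1 in the interaction, and quantile normalization gave 1 at ZT13. One fit of all 24 arrays gave 4 in control and 2 in mutant adipose tissue and 1 in the interaction, and normexp and the filter on every array gave 1 in mutant adipose tissue. Omitting 1 array gave 1 to 2 genes in the control adipose daily change, 0 to 3 in the mutant one, 4 to 7 and 0 to 1 in the control and mutant liver daily changes, 2 to 4 in liver at ZT1, 1 to 2 at ZT13, 1 to 3 in the interaction, 0 to 4 in the tissue difference of the genotype effect at ZT1 and 6 to 8 between tissues. The counts that fell to 4 in control liver and rose to 4 in that tissue difference were those without control ZT13 replicate 3 and adipose S714G ZT1 replicate 3. The cause was not tested. The replicate block left 1 gene in liver at ZT13, Zbtb16, and moved no other count; same-numbered liver and adipose arrays correlated above 0.1 in 3 of 12 pairs, so the arrays were not treated as paired; whether a number marks 1 mouse is not known. The 3 arrays of each group limit the precision, and the dim probes of Nr3c1 and Mt1 lie near background. The fit of slides 2 and 3 alone was chosen after seeing the data. The fixed slide block takes the slide 1 offset from the 3 arrays of adipose S714G ZT1 alone and applies it to liver.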
